A study of Mus musculus with 52 samples.

Results

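The transcription factor gene Myc, its neighbour Pvt1, the paralog Mycn and the partner Max were followed across primary mouse osteosarcomas. They are 4 of the 20730 genes counted, taken by symbol after the Ensembl identifiers had been joined to mouse gene names. The genes were chosen by name, with their counts by genotype in these same libraries already known and Pvt1 and Myc selected on those values. Their levels and fold changes by genotype are therefore given below as descriptions, without a test. The question carried by the choice was whether Pvt1 and Myc rise together from tumour to tumour.

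Myc encodes a basic helix-loop-helix leucine zipper transcription factor that binds DNA as a dimer with Max and drives genes of ribosome production, nucleotide synthesis and cell cycle entry. Mycn and Mycl encode paralogs that use the same partner, while the Mxd proteins, Mnt and Mga compete for Max and mostly repress. Pvt1 is a long noncoding RNA gene that lies downstream of Myc and is often gained together with it in human tumours, and gain of the MYC region is a known feature of human osteosarcoma.

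The tumours carried 1 of 3 Trp53 genotypes: p53fl/fl, with both alleles floxed (16 libraries), p53R172H/fl, with 1 missense allele and 1 floxed allele (19 libraries), and p53R245W/fl, built in the same way with the other missense allele (17 libraries). RNA was taken from flash frozen tumour tissue and sequenced as stranded mRNA, and all 52 libraries are tumours, with no normal bone among them. No label names the driver of recombination, the age of the mice, pooling, or whether each library is a separate animal. In such bulk RNA, fewer cells of a type and less RNA per cell cannot be told apart.

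Total counts per library lay between 21596798 and 67223388. The column names fall into 3 library sets, called A, B and C here, and 18 libraries of set B each had a best match of the same genotype in set A or C, with a Spearman correlation of 0.617 to 0.913 against at most 0.50 for any other pairing. The labels do not say whether matched libraries are the same tumour. Each matched pair was averaged and counted once, which gives 34 units (10 p53fl/fl, 13 p53R172H/fl, 11 p53R245W/fl), and a unit is named below by its tumour numbers, as in 524/622. Trp53 itself had unit medians of 17.4 CPM (read counts scaled to library size) in p53fl/fl, 35.8 in p53R172H/fl and 31.5 in p53R245W/fl, and the highest p53fl/fl library (20.1 CPM) was below the lowest library of either missense genotype. The osteoblast markers summed to between 4841 and 200941 CPM over units, with all 10 markers at a median of 1 CPM or more, while 7 of 8 T and NK cell markers had medians under 1 CPM.

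Pvt1 had the widest spread of the 4 genes over all units (SD 1.93 log2 units) and within p53R172H/fl (2.40), while within p53fl/fl and p53R245W/fl Mycn, at low counts, spread more (1.365 and 2.07 against 0.879 and 1.76 for Pvt1). It is annotated as a lincRNA (ENSMUSG00000097039.8) on GRCm38 chromosome 15 from 62037986 to 62378096, on the plus strand. In p53fl/fl units it ranged from 9.73 CPM through a median of 15.2 to 60.9 CPM. In p53R172H/fl units it ranged from 10.4 through 24.6 to 1366 CPM, and in p53R245W/fl units from 1.96 through 15.5 to 208 CPM. The groups overlapped through most of their range. The p53R172H/fl units reached further up than the p53fl/fl units, and the p53R245W/fl units reached further both down and up.

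Above 100 CPM of Pvt1 stood 5 units, 4 of them p53R172H/fl, 1 p53R245W/fl and 0 p53fl/fl. The p53R172H/fl tumour 1441 had 1366 CPM (61111 counts in its 1 library), which was 77.8 times the median of all units. Unit 524/622 followed with 639 CPM, its libraries reading 635 and 643 CPM. Unit 344/383 had 263 CPM (244 and 282 CPM in its libraries), p53R245W/fl unit 485/1817 had 208 CPM (169 and 246 CPM), and p53R172H/fl unit 424/1241 had 166 CPM (150 and 182 CPM). Where a high unit had 2 libraries, both were high. The remaining 9 p53R172H/fl units lay between 10.4 and 30.9 CPM, inside the range of the p53fl/fl units.

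**Figure D1:**
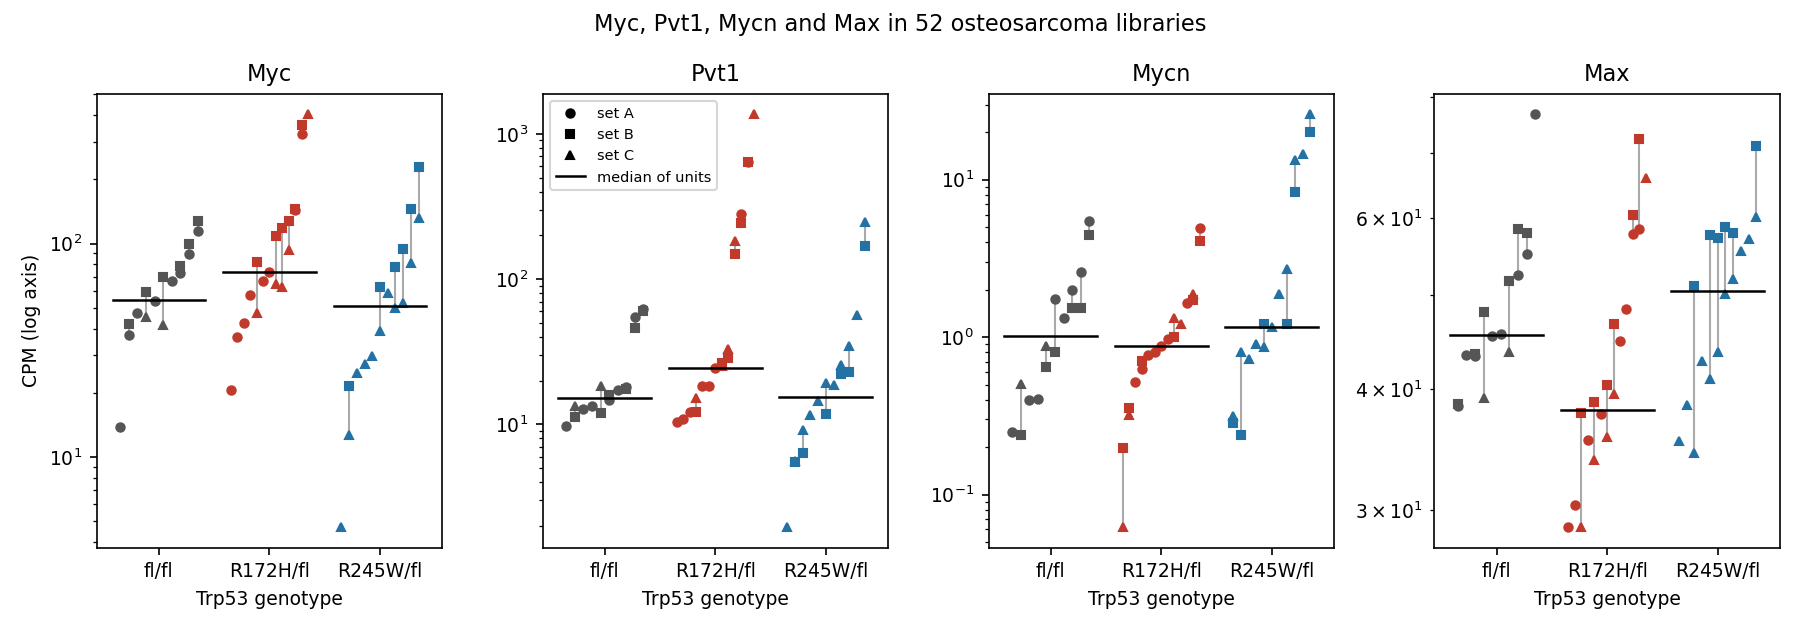
Level of Pvt1, Myc, Mycn and Max in each of the 52 libraries (CPM, log axis) by genotype, with the marker shape giving the library set, grey lines joining matched libraries and black bars the median over units. Pvt1 reaches 1366 CPM in p53R172H/fl against a highest p53fl/fl unit of 60.9 CPM, whereas Max stays between 28.8 and 76.7 CPM in all units.

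Over all 52 libraries the log2 fold change of Pvt1 in p53R172H/fl against p53fl/fl was 2.99 (SE 0.68) in edgeR, and with library set and matched libraries taken into the model in limma it was 1.26 (SE 0.63). For p53R245W/fl against p53fl/fl the values were 0.69 (SE 0.63) and -0.48 (SE 0.73), so the sign turned. For p53R245W/fl against p53R172H/fl they were -2.30 (SE 0.64) and -1.73 (SE 0.66). The first model counts matched libraries as separate replicates, so that 344/383, 424/1241 and 524/622 enter it with 2 libraries each. With matched libraries summed, edgeR gave 3.13 (SE 0.90), 0.70 (SE 0.83) and -2.43 (SE 0.83) in the 3 comparisons. With library set as a covariate it gave 2.81 (SE 0.70), 0.33 (SE 0.77) and -2.48 (SE 0.68). The lower limma values against p53fl/fl were thus not seen in edgeR with either change, and their source was not tested.

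Myc (ENSMUSG00000022346.15) lies upstream of Pvt1 on the same strand, on chromosome 15 from 61985391 to 61990374. It was the more abundant of the pair, with 22.5 CPM per kilobase of exon as the median over units against 2.51 for Pvt1. Myc ranged from 13.8 CPM through a median of 54.6 to 121 CPM in p53fl/fl, from 20.6 through 73.5 to 404 CPM in p53R172H/fl, and from 4.69 through 50.9 to 180 CPM in p53R245W/fl. The 3 ranges overlapped broadly. The highest units were 1441 with 404 CPM and 344/383 with 343 CPM, both p53R172H/fl, at 6.61 and 5.61 times the median of all units. The lowest were p53R245W/fl tumour 1580 with 4.69 CPM (271 counts), p53fl/fl tumour 1512 with 13.8 CPM (832 counts) and p53R245W/fl unit 408/1835 with 17.2 CPM.

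The edgeR log2 fold change of Myc was 0.92 (SE 0.36) for p53R172H/fl and 0.02 (SE 0.37) for p53R245W/fl, each against p53fl/fl. In the model with matched libraries the same values were 0.68 (SE 0.38) and -0.20 (SE 0.42). With set means removed, matched libraries differed in Myc by a median of 0.36 log2 units, against an SD of 1.16 log2 units over all 34 units. For Pvt1 the same figures were 0.45 and 1.91, so for both genes the spread between units was larger than the differences between matched libraries.

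Pvt1 was higher in tumours with higher Myc. Over 34 units the Pearson correlation of log2 CPM was 0.849 and Spearman's rho 0.882. These values are given without a p, since the pair was chosen with its differences between genotypes known. Without the 2 units farthest from the median of Myc, 1441 and 1580, r was 0.791. The 5 units above 100 CPM of Pvt1 are set apart from the others and are too few for a correlation of their own. Among the 29 units below that level, a split made after the values were seen, r was 0.814 and rho 0.812.

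The values within a genotype come from the same libraries on which the pair was chosen. The units of high Pvt1 that set p53R172H/fl apart, 4 of 13, also enter its correlation. These values are therefore descriptions too, without a p. Within p53R172H/fl r was 0.883 over 13 units (rho 0.962), and within p53R245W/fl it was 0.868 over 11 units (rho 0.846). Within p53fl/fl r was 0.759 over 10 units (rho 0.758). Over the units below 100 CPM of Pvt1, r was 0.781 in p53R172H/fl (9 units) and 0.833 in p53R245W/fl (10 units). Without the 2 units farthest from the median of Myc in each genotype, r was 0.781, 0.636 and 0.780. Library by library within sets, r was 0.812 in set A (rho 0.941), 0.783 in set B (rho 0.901) and 0.928 in set C (rho 0.938). After genotype and set means were removed it was 0.839, and without the 5 libraries of low Col1a1, a bone collagen gene, it was 0.830.

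**Figure D2:**
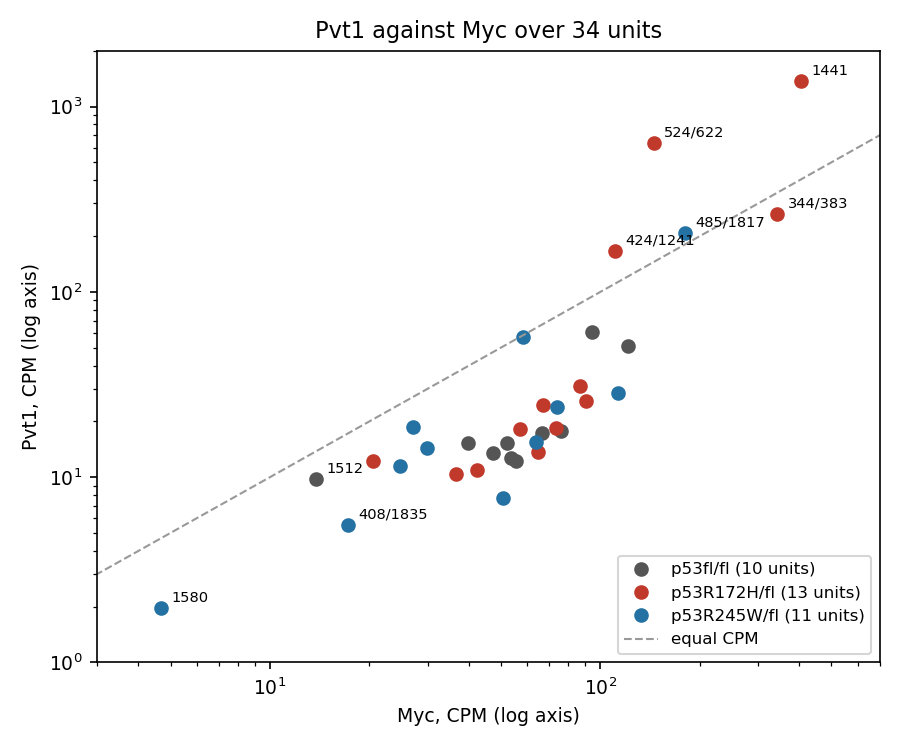
Pvt1 against Myc in the 34 units (CPM, both axes log), coloured by genotype, with a dashed line of equal CPM and the numbers of the units of highest Pvt1 and lowest Myc. The cloud rises from tumour 1580 (4.69 CPM of Myc, 1.96 of Pvt1) to tumour 1441 (404 and 1366), and 4 of 34 units lie above the line.

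The proportion of the 2 transcripts was not fixed. The ratio of Pvt1 to Myc CPM had a median of 0.340 and a range of 0.152 to 4.417 over units, and was below 1 in 30 of 34. It exceeded 1 in 524/622 (4.417), 1441 (3.381), 424/1241 (1.501) and 485/1817 (1.157). Unit 344/383, which had the second highest Myc, stayed at 0.768. This ratio is not scaled to exon length. Per kilobase of exon, Pvt1 was above Myc in 524/622 (91.4 against 53.3 CPM) and 1441 (195 against 149). By that measure it was below Myc in 424/1241 (23.7 against 40.7) and 485/1817 (29.7 against 66.1). In 524/622 Myc was 145 CPM, 2.37 times the median of units, while Pvt1 was 36.4 times its own median.

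The library set moved with this ratio. In 12 matched pairs, the set C library had lower Myc than the set B library in 12 of 12, by a mean log2 difference of -0.72 (exact sign-flip p = 0.000488, the smallest possible, adjusted 0.00163 over 10 tests). Pvt1 was higher in set C in 11 of 12 pairs, by 0.35 log2 units (exact p = 0.00146, adjusted 0.00366). The log2 ratio of Pvt1 to Myc was 1.07 higher in set C, in 12 of 12 pairs. Max was lower in set C in 12 of 12 pairs as well, by -0.30 (exact p = 0.000488). In the 6 pairs of sets A and B the ratio was 0.20 higher in set A, in 6 of 6 (exact p = 0.0312, the smallest possible, adjusted 0.0446). What differs between the sets was not given in the labels, and p53fl/fl had 2 libraries in set C against 11 of p53R245W/fl. In set A p53R245W/fl had 0 libraries. Within set C the L number in the column names also differed by genotype. All p53R245W/fl libraries except 1580 had another L number than the p53fl/fl and p53R172H/fl libraries. In set C, p53R245W/fl and that number therefore cannot be told apart, apart from 1580.

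None of the other 5 member pairs passed an adjusted p of 0.05 over all units, with the adjustment made over the 6 pairs of members. Myc with Max had r = 0.149 (rho 0.19, permutation, adjusted p = 0.398), Pvt1 with Max 0.270 (rho 0.10, adjusted p = 0.245), Myc with Mycn -0.239 (rho -0.03, adjusted p = 0.258) and Pvt1 with Mycn -0.169 (rho 0.02, adjusted p = 0.398). Mycn with Max had the largest value of the remaining pairs, 0.336 (rho 0.32, permutation p = 0.0527, adjusted 0.158). Inside p53R172H/fl, Myc with Max had r = 0.827 (rho 0.69) and Pvt1 with Max 0.764 (rho 0.60). Both are given without a p, since Myc and Pvt1 were chosen with their levels by genotype known. Both r values rested in part on the units of high Pvt1: over the 9 p53R172H/fl units below 100 CPM, r was 0.492 for Myc with Max and 0.215 for Pvt1 with Max. In p53fl/fl Myc with Max was -0.440, and 0.497 without tumours 1512 and 400/1427, and the difference between the genotypes was not tested.

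Genes on the same side of chromosome 15 tended to be higher where the pair was higher. A split at 70 Mb was set after the values were seen. Of 184 other genes below it with a mean of 1 CPM or more, 81.0% had a positive rho with Myc (median 0.25) and 85.9% with Pvt1 (median 0.27). Of 385 genes from 70 Mb on, 16.4% were positive with Myc (median -0.23) and 14.8% with Pvt1 (median -0.24). All 14842 genes of that level had medians of -0.0047 with Myc and -0.0026 with Pvt1. Genes that neighbour each other share the same units, and are not independent replicates.

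**Figure D3:**
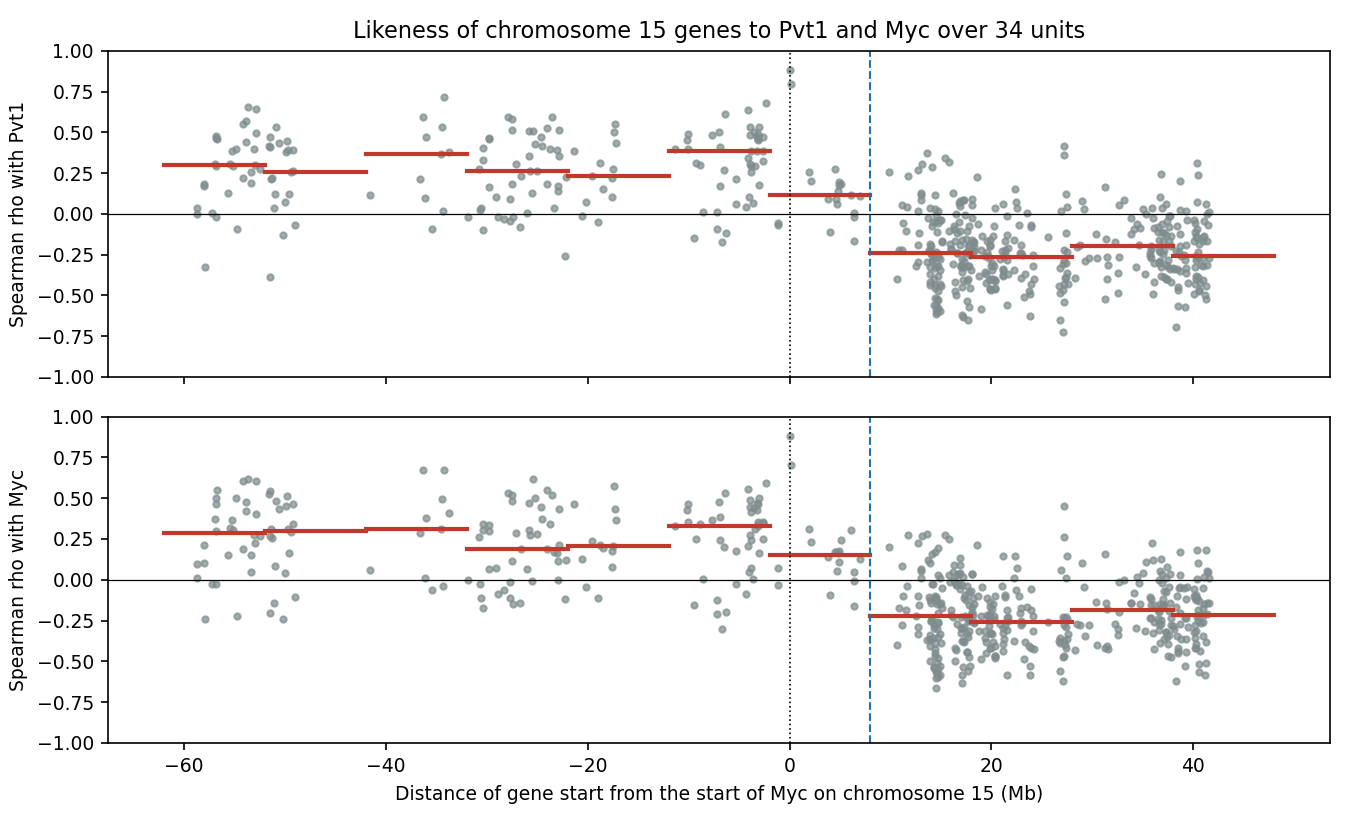
Spearman rho over 34 units of each chromosome 15 gene with Pvt1 (top) and with Myc (bottom) against the distance of its start from the start of Myc (Mb), with red bars for medians of 10 Mb bins, a dotted line at Myc and a dashed line at the 70 Mb split. Medians are above 0 before the split (0.27 with Pvt1) and below 0 after it (-0.24).

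Among 261 bins of 10 Mb with at least 10 genes across the genome, the 6 bins of highest median rho with Pvt1 were all on chromosome 15 below 60 Mb. The bin at 50 Mb was first (0.38), followed by that at 20 Mb (0.37). The bin that holds Myc and Pvt1, from 60 Mb, ranked only 26 (0.11). For Myc the first 4 bins were on the same part of chromosome 15, led by the bin at 50 Mb (0.33). Bins of chromosome 10 at 100 and 110 Mb came next for Myc, ranked 5 and 6 (0.24 each). For Pvt1 they ranked 7 and 9 (0.21 and 0.18). The 2 genes correlate closely over the same 34 units (rho 0.882), so their shared bins are not a separate result.

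The high units differed in how much of the chromosome was raised. In tumour 1441 the genes below 70 Mb had a median of 1.02 log2 units above the median of all units, against 0.09 for those beyond. Its bin at 60 Mb stood at 0.96 and its next bin at -0.075. In 344/383 the bin at 50 Mb was at 2.025 and the bin at 60 Mb at -0.56, and the 2 sides of the split were at 0.51 and -0.56. In 524/622 the genes below 70 Mb were at -0.065 and in 424/1241 at -0.063, against -0.50 and -0.23 beyond it. The bin that holds Pvt1 stood at 0.02 in 524/622 and at 0.40 in 424/1241. Unit 485/1817 was at 0.22 below the split and 0.08 beyond it, with -0.68 in the bin that holds Pvt1. Raised medians were also seen below 100 CPM of Pvt1, as in p53fl/fl unit 400/1427 (0.87, with 50.8 CPM of Pvt1).

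**Figure D4:**
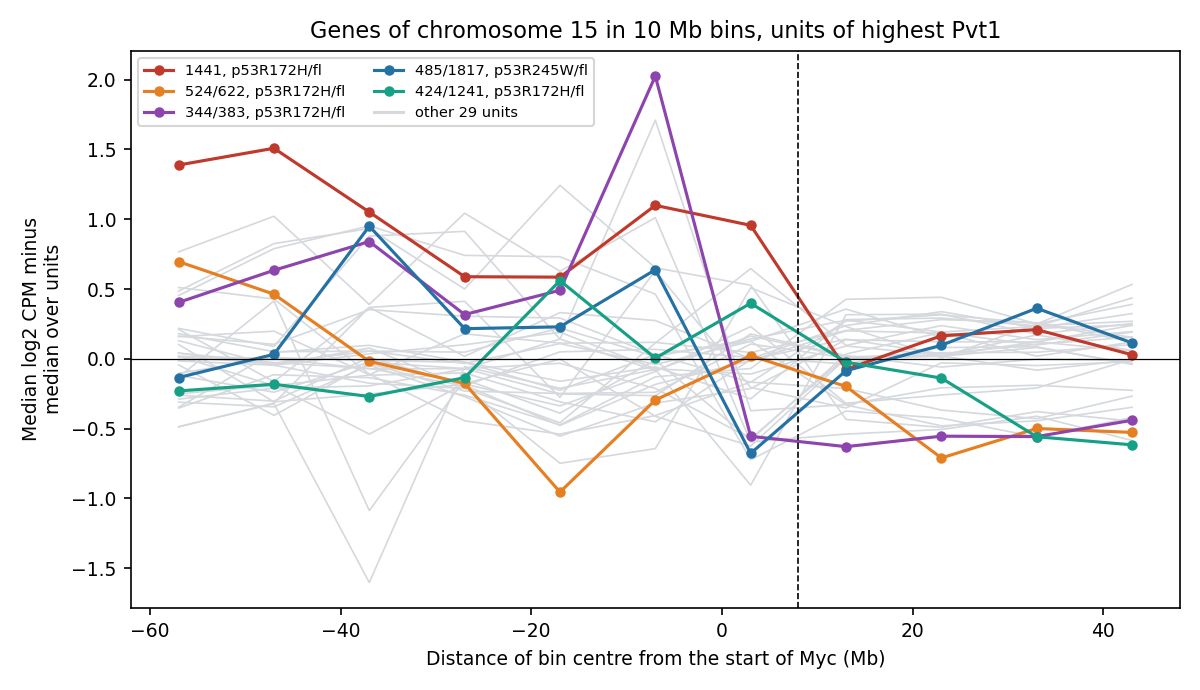
Median log2 deviation of genes in 10 Mb bins of chromosome 15 from their median over all units, against the position of the bin relative to Myc (Mb), with the 5 units of highest Pvt1 in colour, the other 29 in grey and a dashed line at the 70 Mb split. Tumour 1441 falls from 0.96 to -0.075 across the split, 344/383 peaks at 2.025 one bin before Myc, and 524/622 stands at 0.02 in the bin that holds Myc.

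Close neighbours of Myc did not follow it uniformly. Fam84b, on the minus strand from 60818994 to 60853778, had a median of 5.14 CPM and a rho of 0.07 with Myc and -0.06 with Pvt1. It was the lowest of 34 units in tumour 1441, at -2.40 log2 units, and stood at 1.09 in 344/383. Fam49b, a regulator of Rac1 beyond the end of Pvt1 (63929097 to 64060478, minus strand), had a median of 48.8 CPM and a rho of 0.31 with Myc and 0.26 with Pvt1. It was raised by 0.78 in 1441 and was the lowest of all units in 344/383, at -1.485. Gm27782, a small RNA annotated from 62080245 to 62080443 inside Pvt1 on the same strand, had a rho of 0.80 with Pvt1, but its reads cannot be separated from those of Pvt1. Tsg101-ps, a processed pseudogene whose reads may be shared with its parent gene, stayed at or below 0.541 CPM. The unnamed transcript 9930014A18Rik had rho values of -0.03 with Myc and -0.07 with Pvt1.

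By likeness over the 34 units among 13239 genes, the gene most like Myc was Pvt1 (rho 0.88), and the gene most like Pvt1 was Myc. After Pvt1, Myc was followed by Noc2l (0.69, chromosome 4), a nucleolar histone acetylation inhibitor, Ddx27 (0.68, chromosome 2), an RNA helicase, and the chromosome 15 genes Myo10 (0.68), a filopodial myosin, and Trio (0.67), a guanine nucleotide exchange factor. Pvt1 was followed by Trio (0.72), Trib1 (0.68), a pseudokinase, Nipbl (0.66), the cohesin loader, and Noc2l (0.65). Trio, Trib1 and Nipbl lie on chromosome 15, starting at 27730651, 59648350 and 8290617. Without the 5 units of highest Pvt1 the values stayed positive, with Trio at 0.68 and Noc2l at 0.45 with Pvt1, and Myo10 at 0.66 and Noc2l at 0.53 with Myc.

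These genes peaked in different tumours. Trio was highest in 344/383 (815 CPM) and next in 1441 (811 CPM), against a median of 271 CPM. Nipbl was 654 CPM in 1441, 3.34 times its median. Trib1 peaked in 485/1817 (44.7 CPM) and was lowest in 1580 (5.23 CPM), the tumour of lowest Myc and Pvt1. Noc2l was highest in 524/622 (298 CPM) and lowest in 1580 (44.4 CPM).

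Of the 50 genes most like Pvt1, 18 were on chromosome 15, more than 74.7% of all genes have on their own chromosome, and for Myc the number was 10 (54.2%). Over all genes the median was 8, with 1 to 37 between the 5th and 95th percentiles. Another 10 of the 50 genes most like Myc were on chromosome 10, as many as on its own.

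Mycn (ENSMUSG00000037169.14, chromosome 12, 12936093 to 12941914, minus strand), the paralog best known from neural tumours and embryonic tissue, was low in most tumours. Its median over units was 1.02 CPM in p53fl/fl (0.250 to 4.95), 0.884 in p53R172H/fl (0.130 to 4.51) and 1.16 in p53R245W/fl (0.30 to 23.0). The highest were 3 p53R245W/fl units. Unit 408/1835 had 23.0 CPM (19.97 and 26.1 in its libraries), 1580 had 14.5 CPM and 555/941 had 10.8 CPM (8.32 and 13.3). All other units were below 5 CPM. Low counts limit precision below that level, and matched libraries differed by up to 1.44 log2 units.

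Tumours 408/1835 and 1580 combined the 2 highest Mycn levels with 2 of the 3 lowest Myc levels. Unit 555/941 did not, with 63.8 CPM of Myc. Within p53R245W/fl, Mycn and Myc had r = -0.647 over 11 units (rho -0.53, permutation, adjusted p = 0.0619) and Mycn and Pvt1 r = -0.676 (rho -0.57, adjusted p = 0.0606). Without these 2 tumours the values were -0.222 and -0.388, so neither relation held without them. The longest stretch shared by the main Myc and Mycn transcripts was 12 bases, shorter than a sequencing read of usual length. The edgeR log2 fold change of Mycn in p53R245W/fl against p53fl/fl was 1.84 (SE 0.58), or 1.22 (SE 0.73) with matched libraries in the limma model. Tumours 408/1835 and 1580 are among those of low Col1a1, and without the 5 such libraries (408, 494, 1580, 1831 and 1835) the edgeR value was 0.69 (SE 0.56).

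Max (ENSMUSG00000059436.12, chromosome 12, 76937269 to 76962201, minus strand), the shared dimer partner, was the steadiest member. It ranged from 38.5 through 45.4 to 76.7 CPM in p53fl/fl units, from 28.8 through 38.02 to 66.0 in p53R172H/fl and from 35.3 through 50.4 to 65.6 in p53R245W/fl. The groups overlapped almost fully, and the SD over all units was 0.34 log2 units, against 1.24 for Myc and 1.93 for Pvt1. The highest Max was in p53fl/fl tumour 1512, which had the second lowest Myc. Tumours 1441 and 344/383, the highest in Myc, had 66.0 and 65.4 CPM of Max. The edgeR log2 fold changes were between -0.14 and 0.20 in the 3 comparisons, with SEs of 0.11 to 0.12. In limma with matched libraries they were -0.19 (SE 0.13) and 0.12 (SE 0.14) against p53fl/fl, and 0.31 (SE 0.13) for p53R245W/fl against p53R172H/fl, where edgeR gave 0.20 (SE 0.11).

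The start of Max holds an E-box, the hexamer bound by Myc and Max dimers. The stretch below is from RefSeq on GRCm38.p6, chr12:76962229-76962288 on the minus strand, with 40 bases before and 20 after the annotated start. The capitals mark CACGTG, which is its own reverse complement, with its first base at position -3 from the start.
Max: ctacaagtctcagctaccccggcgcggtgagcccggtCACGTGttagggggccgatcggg
Over all RefSeq promoters of the same 300 bases, 7.2% (2349 of 32851) hold CACGTG. The window of Mycn holds 0. A match describes letters and not binding.

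The remaining 11 genes of the Max network were set against a background in which edgeR called 3.75% of genes for p53R172H/fl against p53fl/fl (1.46% higher, 2.29% lower), 17.8% for p53R245W/fl against p53fl/fl (10% higher, 7.82% lower) and 30.9% for p53R245W/fl against p53R172H/fl (18.2% higher, 12.7% lower). Of the 11, 0 were called in the first comparison, 3 in the second (2 higher, 1 lower) and 5 in the third (2 higher, 3 lower). With matched libraries in the limma model, which called 0.0106% of genes in the first comparison (all higher), 0.0159% in the second (0.0106% higher, 0.0053% lower) and 1.63% in the third (0.662% higher, 0.964% lower), 0 of the 11 were called in any of the 3. Unadjusted p-values under 0.05 numbered 1706, 2007 and 3352 of all genes in that model. As medians over units, Mxd4 was the most abundant of them at 267 CPM, followed by Mga at 162 CPM and Mlxip at 65.6 CPM, and Mlxipl was the least abundant at 0.393 CPM. The median log2 fold changes of the 11 were 0.11, 0.04 and -0.002, beside -0.02, 0.04 and 0.07 over all genes tested.

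Mycl, the other paralog, had a median of 1.14 CPM over units and 70.1 CPM in p53R245W/fl unit 408/1835, 61.5 times that median and the same unit that had the highest Mycn. In edgeR it rose in p53R245W/fl against p53fl/fl by 3.34 log2 units (SE 0.65, adjusted p = 0.000456), and in limma with matched libraries the value was 1.198 (adjusted p = 0.542). Without the 5 libraries of low Col1a1, which include that unit, the edgeR value was 0.58 (adjusted p = 0.403). Over the units Mycl had a rho of -0.27 with Myc and -0.44 with Pvt1.

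Among the competitors of Myc for Max, Mnt fell in edgeR by 0.63 log2 units in p53R245W/fl against p53fl/fl (adjusted p = 0.00266) and by 0.78 against p53R172H/fl (adjusted p = 7.84e-05). In the limma model with matched libraries the values were -0.21 (adjusted p = 0.742) and -0.32 (adjusted p = 0.359). Mxd3, a proliferation-linked Mxd, rose by 0.83 in edgeR in p53R245W/fl against p53fl/fl (adjusted p = 0.0408). Without the low Col1a1 libraries the edgeR value was 0.45 (adjusted p = 0.359), and in limma with matched libraries it was 0.97 (adjusted p = 0.25). Mnt and Mxi1 were highest in 344/383, with 40.2 and 64.4 CPM, and had a rho of 0.32 and 0.34 with Myc. Mxd1 (0.16), Mxd4 (0.07) and Mga (0.21) were weaker, and Mxd3 was negative (-0.21).

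The parallel Mlx arm, whose Mlxip and Mlxipl proteins respond to glucose, had values near or below 0 with Myc. The correlation rho was -0.19 for Mlx, 0.01 for Mlxip and -0.18 for Mlxipl. Zbtb17, the zinc finger protein through which Myc represses genes, was at 0.02. Over the 13 network genes other than Myc, 8 had a positive rho with it, with a median of 0.02.

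Of 20 cofactor and turnover genes, 19 had a positive rho with Myc (median 0.25), where 49.4% of all genes were positive with a median of -0.003. Skp2, a ubiquitin ligase subunit on chromosome 15, was highest at 0.61, and the nucleolar deubiquitinase Usp36 was at 0.47. Mycbp2 was the 1 negative gene (-0.31), and Mycbp (0.015) and the acetyltransferase Kat5 (0.05) were next lowest. Skp2 was highest in tumour 1441, at 391 CPM against a median of 59.8, and was 169 CPM in 524/622.

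Between genotypes, edgeR called 1 of these 20 in p53R172H/fl against p53fl/fl, beside 3.75% of all genes. That gene, Usp28, a deubiquitinase that stabilises Myc, rose by 0.63 log2 units (SE 0.13, edgeR adjusted p = 0.00317). In limma with matched libraries it was 0.66 (adjusted p = 0.117). In p53R245W/fl against p53fl/fl, 1 rose and 2 fell, beside 10% higher and 7.82% lower over all genes. The scaffold Trrap fell by 0.38 and the ubiquitin ligase subunit Fbxw7 by 0.45 in edgeR, and neither was called in limma with matched libraries (-0.17, adjusted p = 0.788, and -0.41, adjusted p = 0.375). In p53R245W/fl against p53R172H/fl 6 fell and 0 rose, beside 12.7% lower and 18.2% higher over all genes, among them Usp36 by 0.84 (edgeR adjusted p = 3.14e-05) and Usp28 by 0.60 (adjusted p = 0.000325). Usp28 was also called in that comparison in limma with matched libraries, at -0.67 (adjusted p = 0.0297). Ep400, Trrap and Kat2a, which act on chromatin, fell by 0.40, 0.41 and 0.52 in edgeR. In limma with matched libraries these 3 were not called (adjusted p = 0.214, 0.403 and 0.349), nor was Usp36 (-0.60, adjusted p = 0.0777). The medians of the 20 were 0.06, -0.03 and 0.07, beside -0.02, 0.04 and 0.07 over all genes tested.

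Of 30 target genes, mostly of ribosome production and metabolism, 25 had a positive rho with Myc (median 0.33), and 26 with Pvt1 (median 0.31). The nucleolar proteins Ncl (0.64), Pa2g4 (0.59) and Ppan (0.57) were highest, and the chaperonin Hspe1 (-0.11), the ribosome assembly factor Bop1 (-0.11) and the transferrin receptor Tfrc (-0.06) lowest. Without the 5 units of highest Pvt1, 22 of 30 were positive and the median was 0.11. With genotype and set means removed, the figures were 24 of 30 and 0.31. For Mycn 10 of 30 were positive (median -0.06), and for Max 24 of 30 (median 0.28). Correlations within a list share the same units, so the genes are not independent replicates.

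The 30 targets did not follow Myc in every tumour. In 1441 they stood at a median of 0.87 log2 units above the median of all units, with 29 of 30 above it, and Ncl was 687 CPM against a median of 228. In 344/383, second in Myc, the median was 0.16 and the unit ranked 10. Tumour 1580, lowest in Myc, was at -0.74 and ranked 33. Tumour 1522 was lowest, at -0.76 with 0 of 30 above the median, although its Myc was 53.7 CPM. Tumour 1512 went the other way: with 13.8 CPM of Myc, 0.397 of Mycn and 0.513 of Mycl it had a median of 0.86, with 27 of 30 above the median and the highest value of all units in 12 of 30. Npm1, a nucleolar chaperone, was 1047 CPM there against a median of 350.

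**Figure D5:**
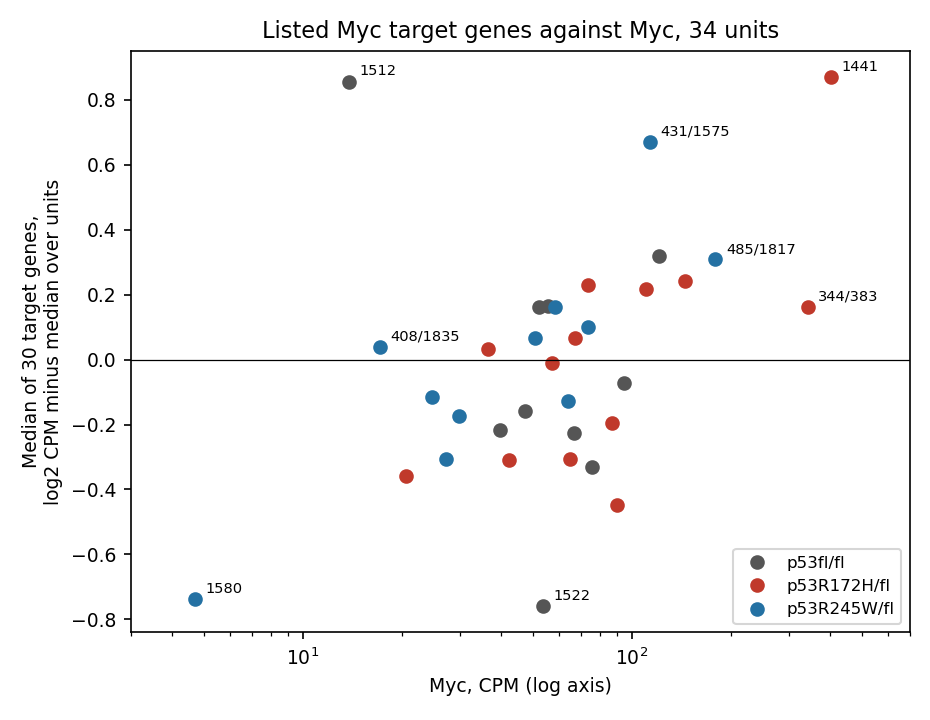
Median log2 deviation of the 30 target genes from their median over units, against Myc (CPM, log axis), for the 34 units coloured by genotype. Tumours 1441 (0.87) and 1580 (-0.74) lie at the ends of a rising cloud, and tumour 1512 (0.86 at 13.8 CPM of Myc) lies apart from it.

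Between genotypes, edgeR called 0 of the 30 targets in p53R172H/fl against p53fl/fl (median log2 fold change 0.03), beside 3.75% of all genes. In p53R245W/fl against p53fl/fl it called 2 higher and 0 lower, beside 10% higher and 7.82% lower over all genes. They were the cyclin-dependent kinase gene Cdk4, which rose by 2.77 log2 units (edgeR adjusted p = 0.000254), and the serine pathway gene Shmt2, by 1.52 (adjusted p = 0.0157). Both lie on chromosome 10 and both peaked in 408/1835, with 6729 CPM of Cdk4 against a median of 141 and 2018 CPM of Shmt2 against 96.7. Without the 5 low Col1a1 libraries the edgeR values were 0.42 for Cdk4 (adjusted p = 0.105) and -0.22 for Shmt2 (adjusted p = 0.534). In p53R245W/fl against p53R172H/fl 6 of 30 targets rose and 2 fell in edgeR, beside 18.2% higher and 12.7% lower over all genes, among them Eif4e by 0.62, Hspe1 by 0.70 and Phb by 0.67 upward and Cad, of pyrimidine synthesis, by 0.44 downward. The limma model with matched libraries called 0 of 30 in any comparison, beside 0.0106%, 0.0159% and 1.63% of all genes in the 3 comparisons.

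Of 12 proliferation genes, 8 had a positive rho with Myc (median 0.06), and 5 of 12 (median -0.10) without the 5 units of highest Pvt1. Over all units the order ran with Mcm5 (0.25), Mki67 (0.22) and Plk1 (0.22) highest and Ccna2 (-0.24), Pcna (-0.06) and Ccnb1 (-0.05) lowest. With Mycn 10 of 12 were positive (median 0.255), and with Max 12 of 12 (median 0.23). Whether these lists differ in their relation to Myc was not tested. In edgeR 0 of 12 were called in p53R172H/fl against p53fl/fl, beside 3.75% of all genes. In p53R245W/fl against p53fl/fl 1 rose and 0 fell, beside 10% higher and 7.82% lower over all genes. It was Ccnb1, by 1.10 (edgeR adjusted p = 0.00397). In limma with matched libraries that value was 0.60 (adjusted p = 0.502). In p53R245W/fl against p53R172H/fl 3 rose and 0 fell in edgeR, beside 18.2% higher and 12.7% lower over all genes. These were Ccnb1 (0.79), Ccna2 (0.56) and Pcna (0.49). The limma model with matched libraries called 0 of 12 in any comparison, beside at most 1.63% of all genes.

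Over the summed marker lists of bone and other cell types, rho with Myc ran from -0.07 to 0.20 and with Pvt1 from -0.18 to 0.15. The upper values are those of the adipocyte sum, most of which is Fabp4 (median 35.4 CPM), and 1 of its 4 tested markers had a positive rho with Myc (list median -0.16).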

How the data were processed

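The deposited table holds raw read counts per gene, with no normalization by the authors. Reads were aligned with STAR to GRCm38, per the submitters' processing notes. No label names the counting program, its strand setting or the annotation. Identifiers were joined without versions to GENCODE M21 (20668 matched, 62 did not). The lowest gene total was 260. Depth is given with the samples, and Mycn had 3 to 1462 counts per library, so counting error matters most for it.

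The 52 libraries were fitted together by genotype with edgeR 4.0.16 under R 4.3.3 (TMM, filterByExpr with a minimum count of 10, robust quasi-likelihood F test, Benjamini-Hochberg over 18882 genes, called at adjusted p under 0.05). This fit counts matched libraries as replicates, which makes its p-values too small. limma 3.58.1 (voom) added library set as a covariate and matched libraries as a block, with an estimated correlation of 0.857. Both were tested on simulated data. Genotype groups come from the labels. Where nothing says libraries are separate animals, p-values measure only the spread between these samples. CPM uses TMM library sizes and log2 CPM a prior count of 2. Correlations over units used permutation tests with 100000 resamples (SciPy 1.17.1), and matched libraries an exact sign-flip test, two-sided.

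Named genes are the 4 members, network genes, tested neighbours within 2 Mb of Myc, the 5 genes most like Myc and Pvt1, up to 6 called genes of each list, and the 3 highest and lowest by rho with Myc. Some genes that the rule names are left out of the text. Skp2, Ncl and Npm1 levels in single tumours were chosen after the values were seen. The members and lists were chosen with earlier results of these data known. Alternatives were DESeq2 1.42.0, no filter, other prior counts, library set as covariate, summed matched libraries, single sets, and leaving out the 5 libraries of low Col1a1.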

Additional observations from a re-analysis of the deposited data

Results flagged for a closer look

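Myc in p53fl/fl tumour 1512 was 3.788 on the log2 CPM scale (13.8 CPM), far below the other 9 units of its genotype, the next of which was at 5.313. The gap was 0.487 of the range of the group, above the critical value of 0.466 for 10 units. It was the 1 value so marked of 28 groups examined, where chance marks about 1 in 20. Trp53 in this tumour was 17.6 CPM, inside the p53fl/fl range.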

How the results depend on the processing

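Counts of called genes depended on how matched libraries and sets were handled. For p53R172H/fl against p53fl/fl (708 genes in edgeR) the count was 1212 with DESeq2, 51 with matched libraries summed, 2 with the replicate block and library set in limma, 95 in set A, 1 in set B, 0 in set C and 1167 without the 5 low Col1a1 libraries. For p53R245W/fl against p53fl/fl (3365) it was 1005 with library set as covariate, 1783 summed, 3 with the block, 4 in set B and 0 in set C. For p53R245W/fl against p53R172H/fl (5829) it was 3000 summed, 307 with the block, 615 in set B and 3 in set C. At an unadjusted p under 0.05, edgeR in set C had 1433 and 607 genes in the 2 comparisons with 0. Beyond Myc with Pvt1, 0 of 5 member pairs passed an adjusted p of 0.05 over all units, against 1 with genotype and set removed, 1 in set C and 1 without low Col1a1. The first and last of these were Pvt1 with Max, which the units of high Pvt1 enter. Pairs inside p53R172H/fl are not counted here, since Myc and Pvt1 were chosen with their levels by genotype known. Shmt2 changed sign in p53R245W/fl against p53R172H/fl (-0.45 with DESeq2, -0.33 without low Col1a1) and against p53fl/fl (-0.33 and -0.22), Cad in the former in set B (0.019), and Fbxw7 in the latter in set C (0.16). In the other comparisons of list genes, 189 values kept their call and 136 lost it.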

Other observations

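Mycn was low where osteoclast genes were high. All 7 osteoclast markers had a negative rho with Mycn over the 34 units, from -0.51 to -0.46 with a median of -0.50, and 8 of 10 osteoblast markers were negative too, with a median of -0.40. Of all genes, 48.9% were positive. The macrophage (median -0.18), neutrophil and erythroid (-0.21), skeletal muscle (-0.07) and adipocyte (-0.09) lists also had 0 positive markers with Mycn. The chondrocyte, T and NK cell, B and plasma cell, endothelial and keratinocyte lists held markers of both signs. Max was negative with all 7 osteoclast markers as well (median -0.26), but not with these alone. The skeletal muscle (median -0.36), neutrophil and erythroid (-0.34), T and NK cell (-0.27), macrophage (-0.23) and B and plasma cell (-0.18) lists also had 0 positive markers with Max. Of the osteoblast markers 1 of 10 was positive (median -0.30), and of the keratinocyte and epithelial markers 4 of 5 (0.365). The chondrocyte, endothelial and adipocyte lists held both signs. The osteoclast markers together ranged from 187.5 to 12850 CPM over units. Their part in the Mycn values was not tested, and the marker genes share the same units. The genes most like Mycn were Zfp367 (rho 0.70), Mboat1 (0.67) and the network gene Mxd3 (0.66), names taken after the values were seen.

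Max rose with its chromosome. Of the 50 genes most like Max, 39 lay on chromosome 12, more than 95.6% of genes have on their own chromosome, and the first was Klhdc2 (rho 0.83), with Ppm1a (0.77) and Mnat1 (0.74), a subunit of the kinase that activates cyclin-dependent kinases, close behind. Over 497 chromosome 12 genes the median rho with Max was 0.22 and 79.5% were positive, against a median of -0.0017 over all genes. The bin at 60 Mb was highest, at 0.59. For Mycn, on the same chromosome, 4 of the 50 genes most like it were on chromosome 12, more than 23.2% of genes have. Among the 261 bins, however, those of chromosome 12 from 60, 100, 80, 0 and 70 Mb ranked 2, 4, 5, 6 and 7 for Mycn. Their median rho was 0.22 to 0.24, and the highest bin was on chromosome 13 (0.25).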
